A study of Mus musculus with 2 samples.

Results

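The NPY family consists of neuropeptide Y (Npy), peptide YY (Pyy) and pancreatic polypeptide (Ppy), and its transcripts were examined in the islets of newborn wild-type and PERK knockout mice. All probe sets annotated to these symbols were taken, which gave 3 probe sets for 3 of the 12393 genes on the array, 1 for each gene. PERK, encoded by Eif2ak3, is the kinase of the endoplasmic reticulum that phosphorylates the initiation factor eIF2 alpha when unfolded proteins accumulate. Islets were obtained with collagenase P from mice of both genotypes 2 days after birth, and RNA of each genotype was hybridised to 1 Affymetrix mouse 430A array. The wild-type mice are labelled as of mixed strains and mixed gender. The label of the knockout mice gives genotype and age, and the sources used here do not say which exons are deleted, in which cells, or whether pups were pooled. The members were chosen with their signals known, so their differences are descriptions, and with 1 array per genotype no difference has a replicate check or a p-value.

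All 3 peptides are made as precursors that are cut and amidated in secretory granules, and they act on a shared set of receptors that inhibit adenylyl cyclase through inhibitory G proteins. Ppy is the hormone that defines the PP cell of the islet. Pyy is made by endocrine cells of the gut and, in the mouse, by islet endocrine cells, above all during development. Npy is a cotransmitter of sympathetic nerves and, in rodents, is also made by beta cells around birth, and neuropeptide Y restrains insulin secretion.

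Npy was the gene of the family that stood lower in the knockout library, while Pyy and Ppy stood slightly higher. The Npy probe set read 1027 intensity units for the wild type and 304.8 for the knockout. The knockout signal was therefore 3.37-fold lower, a log2 ratio of knockout over wild type of -1.75. The knockout signal was still 7.66 times the floor of 39.8 units, below which signals were not read, so this ratio is a measured value and not a bound. In these bulk islet preparations, fewer cells that express a gene and less RNA per cell cannot be told apart.

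The Pyy probe set read 5654 for the wild type and 6747 for the knockout, 1.19-fold higher (log2 ratio 0.26). The Ppy probe set read 6573 and 7733, 1.18-fold higher (log2 ratio 0.23). Both differences are small beside that of Npy and opposite in direction. Probe sets of the same gene disagreed with an SD of 0.26 on the log2 scale over 2597 genes with a second measured probe set, and of 0.20 among the brightest 649. The ratios of Pyy and Ppy are of about that size, slightly above the SD of the bright genes. That SD covers disagreement between probe sets read on the same 2 arrays. It holds no error that a gene's probe sets share and no spread between animals, litters or preparations. The log2 ratio of Npy was 6.82 times the SD over all these genes.

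**Figure D1:**
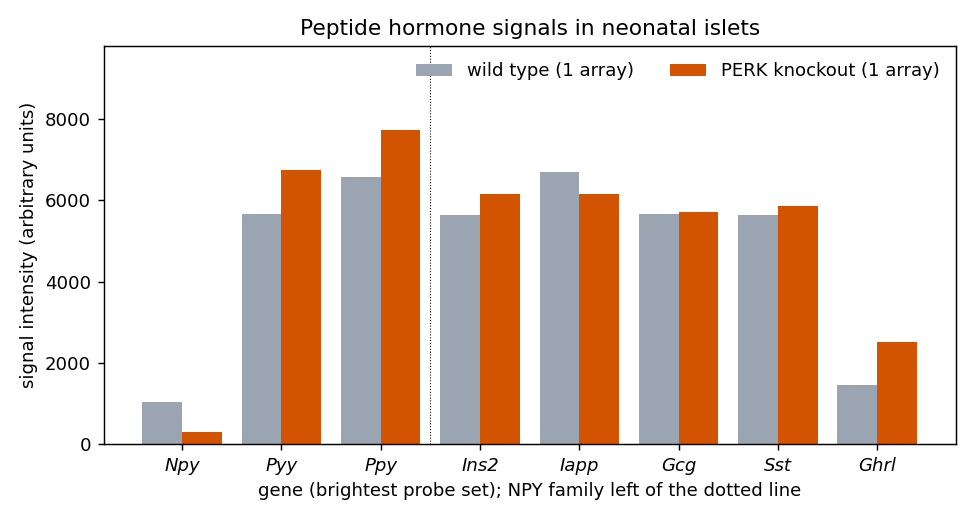
Signal intensity (arbitrary units, vertical axis from 0) of the 3 NPY family genes, left of the dotted line, and of 5 other islet hormone genes, on the wild-type array (grey) and the knockout array (orange). Each bar is 1 array and has no error bar, and heights are to be compared within a gene only. Npy goes from 1027 to 304.8, while Pyy and Ppy are higher on the knockout array.

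The ratio of Npy was low against the whole array as well as within its family. Among the 8133 genes measured on both arrays, meaning above the floor on both, Npy had the 3rd lowest log2 ratio. The rank was also 3 with quantile normalisation, with loess and with each gene centred on the 100 genes nearest in signal. At least 2-fold lower were 1 of 3 members of the family and 53 of 8133 measured genes, or 0.652%, and at least 2-fold higher were 0 members and 42 genes, or 0.516%. The members were picked on this same contrast, so nothing is read from their share. Both genes with a lower ratio than Npy, Asb6 (-2.58) and Hip1r (-2.22), were dimmer, with wild-type signals of 266.7 and 379.8. The next genes above Npy among the 3099 bright genes (at least 235.5 units on the brighter array) were Spc25 (-1.58), Ccna2 (-1.53) and Cklf (-1.49).

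Ratios scatter less among bright genes, so Npy was also set against genes of like brightness. The 100 measured genes nearest to Npy in mean signal, between 642.2 and 693.3 units, had log2 ratios from -0.89 to 0.64 with a median of -0.05. None of these 100 genes was as low as Npy.

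**Figure D2:**
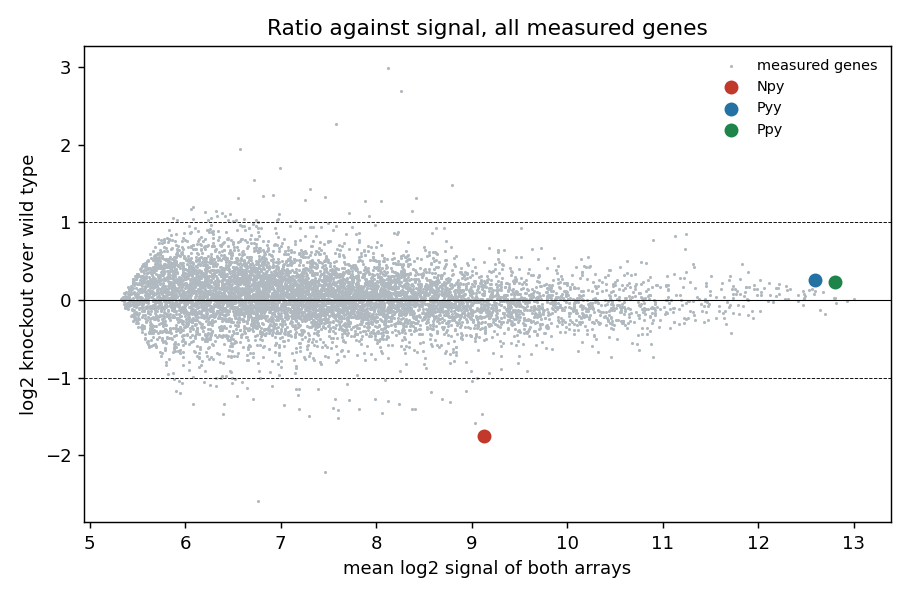
Log2 ratio of knockout over wild type (vertical axis) against the mean log2 signal of both arrays (horizontal axis) for the 8133 measured genes, 1 grey point per gene, with Npy, Pyy and Ppy as larger points and dashed lines at 2-fold. Npy (-1.75) lies below all grey points of like signal, and Pyy and Ppy lie at the bright end, above 0.

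At the bright end of the scale the scatter is narrower still, and among the 23 genes of at least 5000 units Pyy and Ppy had the 2 highest ratios. A signal of at least 5000 on both arrays, a limit chosen after the values were seen, was found for 23 genes. Their log2 ratios ran from -0.17 (Chga, chromogranin A) to 0.26 (Pyy), with a median of 0.03 and an SD of 0.099 across genes, Pyy and Ppy included. Ppy came second at 0.23, ahead of Rps3a1 (0.14), a ribosomal protein gene, and Ins2 (0.12). Pyy also ranked 1 and Ppy 2 of 23 with quantile normalisation and loess, which shift genes of like brightness nearly alike. The signals of Pyy were 69.5% and 81.9% of the maximum of their arrays, and those of Ppy 80.8% and 93.8%, where the scale of an array may compress a difference. Against all measured genes neither ratio was extreme, with 22.1% of genes above Pyy and 24.2% above Ppy. Of the 100 genes nearest to each in mean signal, between 2725 and 8188 units, 6 had a higher ratio than Pyy and 7 a higher one than Ppy.

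**Figure D3:**
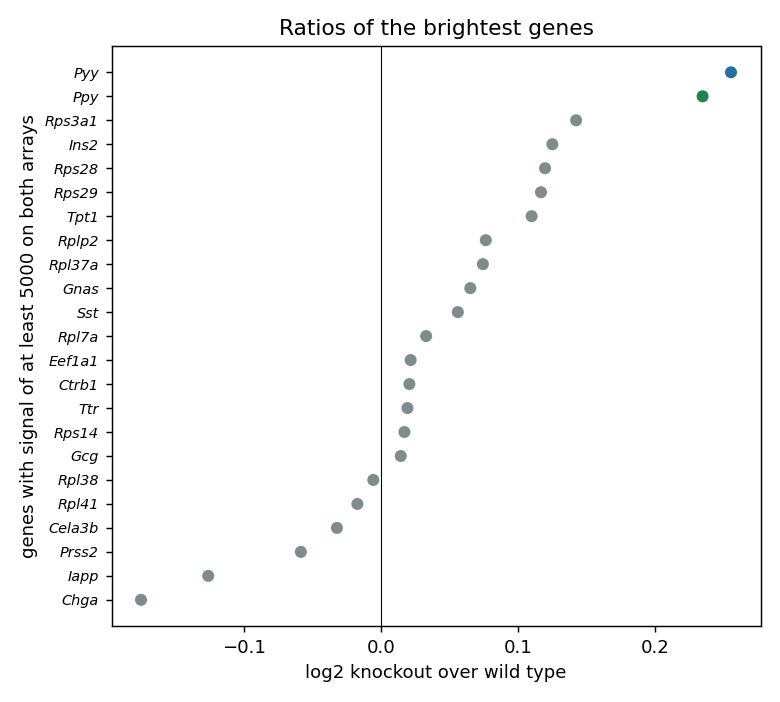
Log2 ratio of knockout over wild type (horizontal axis) of the 23 genes that reached 5000 units on both arrays, 1 point per gene, in order of ratio. Pyy (0.26) and Ppy (0.23) are at the top, apart from the other 21 genes, which end at 0.14.

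The family thus split into a pair and a single gene. The log2 ratios of Npy and Pyy differed by -2.01, so that the signal of Npy relative to Pyy was 4.02-fold lower in the knockout library, and those of Npy and Ppy differed by -1.99 (3.96-fold). The ratios of Pyy and Ppy differed by 0.02. Disagreement between probe sets gives an SD of 0.36 for a difference of this kind.

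The pair also lies side by side in the genome. In RefSeq's GRCm38.p6 annotation, Ppy and Pyy are adjacent protein-coding genes of chromosome 11 on the same strand, whereas Npy is on chromosome 6. The 120 bases before the annotated start of each gene are shown because the pair and Npy differ in exact motif matches. Capitals mark the motifs TATAA (the core of a TATA box) and GGGCGG (a GC box), searched on both strands together with CGTCA (part of the cyclic AMP response element) and TAATTA (a homeodomain core).
Npy, chr6:49822590-49822709, plus strand: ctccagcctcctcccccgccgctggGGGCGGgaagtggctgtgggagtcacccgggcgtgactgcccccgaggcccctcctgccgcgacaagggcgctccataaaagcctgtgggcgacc
Pyy, chr11:102107833-102107952, minus strand: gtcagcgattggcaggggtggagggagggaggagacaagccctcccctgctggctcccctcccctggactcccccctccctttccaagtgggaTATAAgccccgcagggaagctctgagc
Ppy, chr11:102101320-102101439, minus strand: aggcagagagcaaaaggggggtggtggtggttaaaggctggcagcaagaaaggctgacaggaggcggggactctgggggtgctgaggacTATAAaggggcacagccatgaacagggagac

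The TATA core lies 27 to 23 bases before the start of Pyy and 31 to 27 bases before that of Ppy, and these exact letters are not in the window of Npy. Only exact matches were searched, and the Npy window holds the near match cataaaa close to the start of the gene. Whether it serves as a TATA box was not tested, so Npy cannot be said to lack one. An exact GC box lies 95 to 90 bases before the start of Npy only. Near matches to it are also present in the other windows, gggtgg in that of Pyy and aggcgg in that of Ppy. Of 32851 RefSeq promoter windows of this length, 11.8% hold the TATA core and 26.5% the GC box. The cyclic AMP element part (11.7% of windows) and the homeodomain core (2.09%) are in none of the 3 windows. G and C make up 73.3% of the Npy window, 65.8% of that of Pyy and 59.2% of that of Ppy, against a median of 54.2% over all windows. Pyy has 2 annotated starts, and the outer one is shown. No match overlaps another, and a match in these letters does not show that a factor binds there.

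Neighbouring genes, named by position and not by the rule for named genes, differed in their ratios. Beyond Pyy, Nags was at the floor on both arrays and Tmem101 read 118.6 and 137.0 (log2 ratio 0.21), while Lsm12 read 55.3 and 30.5, the latter under the floor. Beyond Ppy, Mpp2 was at the floor on both arrays, and Mpp3 read 309.6 and 159.2 (-0.96). On chromosome 6, the genes next to Npy on the array were Stk31, at the floor on both arrays, and Mpp6, at 101.9 and 87.7 (-0.22), followed by Gsdme at 87.9 and 62.2 (-0.50).

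By pattern, the genes most like Npy were those nearest to it in the plane of both log2 signals, a measure that rests on 2 arrays. They were Spc25 (906.2 to 303.2, distance 0.18), a kinetochore subunit, and Pcsk1 (919.8 to 332.6, distance 0.20), a prohormone convertase. Ppp1r1a, an inhibitor of protein phosphatase, followed at 740.1 to 327.9 (0.48), and the nuclear import factor Kpna2 (0.54) and securin Pttg1 (0.54) were farther away. Nearest to Pyy were Rps3a1 (distance 0.10), Rps29 (0.098), Rpl37a (0.13), Ins2 (0.13) and Tpt1 (0.16). Nearest to Ppy were Ctrb1 and Eef1a1 (both 0.15), Cela3b (0.19), Tpt1 (0.20) and Rpl41 (0.26). For the pair the measure thus returned genes that are bright on both arrays. In the order of ratios among bright genes, Pyy stood between Fgfr1op2, Plpp2 and Hmox2 below and Plec, Rps7 and Gsto1 above, all at 0.25 to 0.26. Ppy stood between Asah1, Gpd2 and Ltbp3 below and Metap2, Hif1a and Diaph1 above, all at 0.23.

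The genes that serve to turn the precursors into active peptides were measured on both arrays, and Pcsk1 had the lowest ratio among them. Pcsk1, which cuts prohormones at paired basic residues, had a log2 ratio of -1.47 (2.77-fold lower). The other 4 of the 5 measured maturation genes were above 0. Cpe, the carboxypeptidase that trims the basic residues left by the cut, read 3525 and 3974 (0.17). Pam, which forms the terminal amide that NPY family peptides need to bind their receptors, read 239.8 and 345.3 (0.53). Scg5, the chaperone of the second convertase, read 3362 and 3646 (0.12), and Pcsk1n, whose product inhibits the Pcsk1 enzyme, read 2133 and 2750 (0.37). The median log2 ratio of the 5 genes was 0.17, beside 0.03 for all measured genes, of which 54.9% were above 0 and 45.1% below, the shares against which counts by direction are to be read. Pcsk2 had no probe set named here.

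Of 7 peptidases that can shorten or degrade the mature peptides, 3 were measured and 4 were at the floor on both arrays. Dpp4, which removes the first residues of neuropeptide Y and peptide YY and thereby changes their receptor preference, read 121.9 and 146.2 (0.26). Xpnpep1, an aminopeptidase that cuts before proline, read 420.2 and 268.7 (-0.65, 1.56-fold lower). The meprin subunit Mep1a read 72.1 and 55.3 (-0.38). Xpnpep2, Mme (neprilysin), Mep1b and Klkb1 (plasma kallikrein) gave no ratio.

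The receptors of the family were at or near the floor in both libraries. Npy1r read 47.6 for the wild type and 35.5, under the floor, for the knockout, at least 1.20-fold lower by this probe set. A second Npy1r probe set was under the floor on both arrays (4.5 and 4.0). Npy2r (0.5 and 0.3), Npy4r (27.9 and 24.4), Npy5r (15.8 and 10.3) and Npy6r (11.6 and 9.8) were under the floor on both arrays. No receptor ratio can therefore be set beside those of the peptides. Of 18 genes of receptor signalling, 12 were measured and none was 2-fold apart, with a median log2 ratio of 0.07. Of all measured genes, 0.652% were at least 2-fold lower and 0.516% at least 2-fold higher, so nothing is read from that count. The brightest were the inhibitory G protein subunits Gnai2 (1019 to 1274, 0.32) and Gnai3 (649.6 to 642.3, -0.02). Above 0 were 9 of these 12 genes, and 7 of 12 with quantile normalisation or loess, near the 54.9% of all measured genes.

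The other islet hormones and the listed neuropeptides and gut peptides had ratios far above that of Npy. Of the 5 other islet hormones on the array, 4 had log2 ratios between -0.13 (Iapp, amylin) and 0.12 (Ins2, insulin), with Gcg (glucagon) at 0.01 and Sst (somatostatin) at 0.06. Ghrl (ghrelin), the hormone of epsilon cells, read 1461 and 2503 (0.78, 1.71-fold higher). The median of the 5 was 0.06, and 4 were above 0, falling to 2 with loess. Of 21 other neuropeptides and gut peptides on the array, 13 were measured, and 10 were above 0 (9 with quantile normalisation or loess). None was 2-fold apart, near the share of all measured genes (0.652% lower, 0.516% higher). Their median log2 ratio was 0.44, against 0.03 over all measured genes, and their signals were mostly low. The 2 brightest were Scg2, secretogranin II (4051 to 3556, -0.19), and Cartpt, the CART peptide precursor (230.5 to 301.2, 0.39). Named after their values were seen, Gast (gastrin) had 0.77, Gal (galanin) 0.65, Vip 0.57, Tac1 (tachykinin) 0.54, Sct (secretin) 0.52 and Penk (enkephalin) 0.45. The lowest of the 13 was Scg2, so none came near the -1.75 of Npy.

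**Figure D4:**
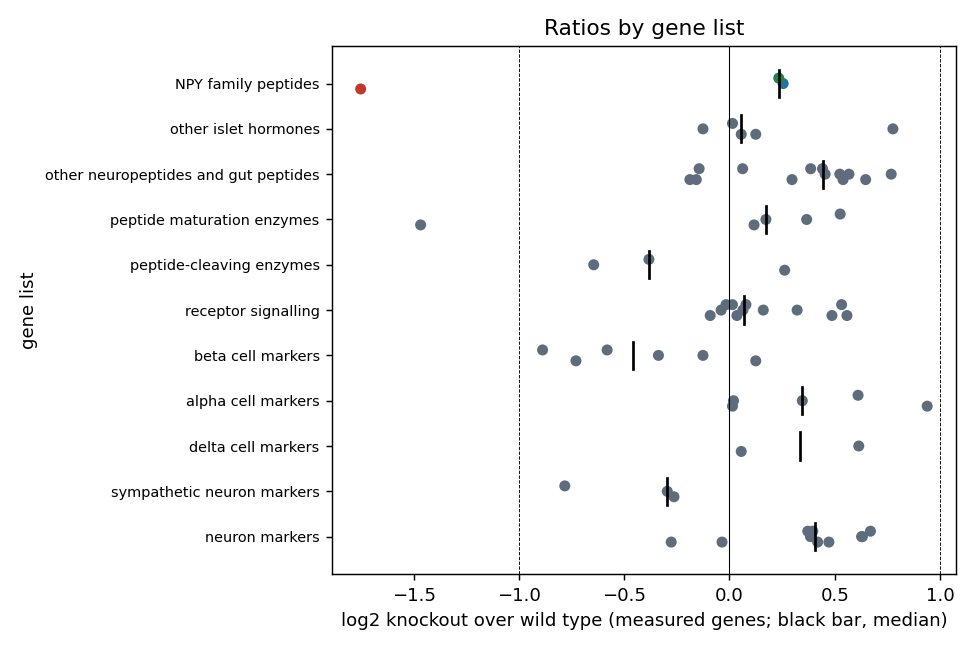
Log2 ratio of knockout over wild type (horizontal axis) of the measured genes of each list, 1 point per gene (brightest probe set), with a black bar at the list's median and dashed lines at 2-fold. Npy (-1.75) and Pcsk1 (-1.47) are the only points below the lower 2-fold line, and Pyy and Ppy lie close together near 0.25.

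Markers of the cells known to make these peptides differed in direction. Of 6 measured beta cell markers, 5 were below 0 (45.1% of all measured genes were), with a median of -0.46 and signals that summed to 16479 in wild-type and 14832 in knockout islets. All 5 measured alpha cell markers were above 0 (3 with loess, quantile normalisation or median centring), with a median of 0.35 and sums of 14264 and 14680. The delta cell markers Sst and Hhex had 0.06 and 0.61. The PP cell list held Ppy alone, so Ppy had no independent marker of its cell. The genes listed as sympathetic markers, Th (279.0 to 232.4), Dbh (78.8 to 64.2) and Ddc (588.6 to 342.2), had log2 ratios of -0.26, -0.30 and -0.78. Their list summed to 989.2 and 689.2, and most of that fall lay in Ddc. Whether the RNA of Th and Ddc came from nerve or from islet cells was not tested. Phox2a was under the floor in the wild type and just above it in the knockout, and Hand2 was at the floor on both arrays. General neuronal markers went the other way: 8 of 10 measured genes were above 0, against 54.9% of all genes, with a median of 0.41 and sums of 1781 and 2552. The part of beta cell, nerve or alpha cell markers in the peptide ratios was not tested.

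Gut endocrine cells are another source of peptide YY, and the listed markers of gut epithelium in general were mostly at the floor. Of 8 such markers, 6 were at the floor on both arrays, among them Cdx1, Cdx2, Fabp1 and Fabp2, and Krt20 was under it in the wild type. Vil1 (villin) alone was measured, at 81.9 and 64.0.

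No measured transcription factor of the lists was 2-fold apart, which is near the share of all measured genes (0.652% lower, 0.516% higher). Of 6 measured endocrine factors, 5 were below 0 with a median of -0.15, falling to 4 with quantile normalisation or loess (45.1% of all measured genes were below 0). The brightest were Neurod1 (1781 to 1596, -0.16) and Isl1 (1374 to 1726, 0.33). The lowest was Insm1 (998.3 to 670.6, -0.57), named after its value was seen. The second probe sets of Neurod1 and Isl1 gave 0.17 and 0.19. Of the factors linked to Npy in hypothalamic neurons, Foxo1 (216.3 to 201.8) had -0.10 and Stat3 (389.1 to 474.7) had 0.29, while Creb1 was at the floor on both arrays. Of 5 progenitor genes, 4 were measured with a median of 0.07, and the brightest were Cpa1 (0.14) and Neurog3, the factor that starts endocrine differentiation (109.8 to 166.4, 0.60). Cpa1 (4800 to 5271) is also among the listed acinar markers, and which cells its RNA came from was not tested. Of 5 genes higher in immature beta cells, 3 were measured with a median of 0.14, among them Ldha (-0.02) and Hk1 (0.14).

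For the libraries as a whole, Eif2ak3 was 2.01-fold lower in the knockout (117.7 to 58.7), with 2 further probe sets too dim to read. Ins2, Gcg and Sst, defining genes of islet cells, were among the brightest signals of both arrays. Acinar enzymes were also bright, with 11 of 12 marker genes measured and sums of 41323 and 43501. All 11 measured immune markers were above 0, against 54.9% of all measured genes. At least 2-fold higher were 4 of them, against 0.516% of all measured genes, and the list summed to 1499 and 3880. Most of that gain lay in the neutrophil genes S100a8 (98.9 to 788.8), S100a9 (120.8 to 778.3) and Ngp (87.3 to 420.6). The macrophage receptor Csf1r read 308.9 and 323.7 (log2 ratio 0.07), the lowest ratio of the 11 markers. Other macrophage markers of the list had higher ratios: C1qa (220.7 to 404.5) 0.87, C1qb 0.72, Adgre1 0.68 and Cd68 0.56. The part of immune markers in the ratios of the NPY family was not tested.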

How the data were processed

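Each array was deposited as 22690 linear intensities, 1 per probe set. The submitters' processing notes name GCOS 1.02, Affymetrix's software, and no other tool, and give neither the background step nor the way probes were summarised. The deposited intensities had 2% trimmed means of 149.7 on both arrays, so the knockout array was rescaled by a factor of 1.00. Signals below 39.8, the 40th percentile over both arrays, were raised to that floor before log2. Probe sets were named from the platform annotation: 20380 had 1 symbol (20351 matched RefSeq's GRCm38.p6 gene table), 691 several and 1555 none, and 64 were controls. The brightest probe set stood for each of 12393 genes, of which 8133 exceeded the floor on both arrays (measured), 693 on 1 array (a bound) and 3567 on neither. There was 1 array per genotype, so no test was run. The number of arrays limits the precision. The members and the gene lists were chosen with earlier results of these data known.

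Genes named are the members, all receptors, maturation enzymes, peptidases and islet hormones, from the other lists those 2-fold apart or else the 2 brightest measured, the 5 genes nearest each member in both log2 signals, the neighbours of a member in the order of ratios among bright genes (75th percentile), and Eif2ak3. Markers of cell types, position neighbours and the genes over 5000 units fall outside this rule and were named after their values were seen. Python 3.11.15, numpy 2.4.6, pandas 2.3.3 and statsmodels 0.14.6 were used, and the procedure was tested on simulated data. Alternatives were 4 other scalings (deposited values, median centring, quantile normalisation and loess), a floor at the 25th or the 60th percentile, a pseudocount of 16, the median over probe sets and leaving out 2 types of probe set. Centring on the 100 genes nearest in signal was chosen after seeing the data.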

Additional observations from a re-analysis of the deposited data

How the results depend on the processing

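With 1 array per genotype, all ratios describe these 2 libraries, and each member rests on 1 probe set. No paired analysis was possible because each group has a single array. Over 10 alternative settings the log2 ratio of Npy lay between -1.79 and -1.70, that of Pyy between 0.19 and 0.26 and that of Ppy between 0.16 and 0.23. The median of the maturation enzymes lay between 0.08 and 0.20, that of the other neuropeptides and gut peptides between 0.36 and 0.49, and that of the other islet hormones between -0.01 and 0.06. The receptors gave no median, since none was measured on both arrays. The 42 genes at least 2-fold higher became 27 with quantile normalisation, 26 with loess, 81 with the floor at the 25th percentile and 13 at the 60th. The 53 genes at least 2-fold lower became 80 and 28 at those floors. The lower floor admits dimmer genes and the higher one removes them, and for the 2 normalisations the cause was not tested. Signals near the array maximum limit what can be read for Pyy and Ppy, and signals near the floor for the receptors.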
